A study of Mus musculus with 6 samples.

Results

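The DNA replication genes described here are a module of 43 mouse genes chosen by name, from origin licensing through the replicative polymerases to the assembly of chromatin behind the fork. Each was represented by the RefSeq transcript with the highest mean level for its symbol. All 43 were found among the 22098 gene symbols of the table, and all 43 passed the filter on low values, a mean of 1 RPKM or more, which 10943 genes passed. RPKM are reads scaled by transcript length and by library size, so levels can be compared between genes. The module holds 11 licensing genes, 4 genes of helicase activation and the replisome, 8 genes of primase and the polymerases, and 10 genes of the sliding clamp, its loader, single-strand binding and the lagging strand. The others are 4 genes of nucleotide supply, 2 E2F regulators and 4 genes of chromatin assembly and maintenance methylation.

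DNA replication starts at origins that the origin recognition complex marks and on which Cdc6 and Cdt1 load the ring-shaped MCM helicase before S phase. Activated helicases unwind the template, primase and the polymerases copy it, and the clamp Pcna holds the polymerases on the DNA while histones and methyl groups are put back behind the fork. Many of these genes are transcribed together under E2F factors as cells enter S phase, and proB cells, the bone marrow precursors that rearrange the immunoglobulin heavy chain locus, go through bursts of division. Ikaros, encoded by Ikzf1, is a zinc finger DNA-binding protein of the lymphoid lineages.

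RNA was sequenced from proB cells sorted from bone marrow of C57BL/6 mice aged 6 to 7 weeks. The groups were the Ikaros ZnF4-/- mutant (ZnF4), the Ikaros ZnF1-/- mutant (ZnF1) and wild type (wt), the mutants carrying alleles altered in zinc finger 4 or zinc finger 1 of Ikaros. From each genotype came cells of Hardy fraction C+C' (fraction C below) and of the earlier Hardy fraction B. There was 1 library for each of the 6 combinations, and the labels do not say how many animals or which sex entered a library, so library pairs can be compared only without a test or an error.

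Library-wide features bear on every comparison. The 12 proB markers were above 0 in all 6 libraries, with Kit, a receptor of early progenitors, lowest. The summed proB markers stood at 4466 (ZnF4), 2123 (ZnF1) and 2820 RPKM (wt) in fraction C and 4821 (ZnF4), 5123 (ZnF1) and 3542 RPKM (wt) in fraction B. The markers did not move together: of the 12, 9 were higher and 3 lower in ZnF4 than in wt cells of fraction C, and 8 were higher and 4 lower in fraction B. Dntt, the terminal transferase gene, had 25.7 (ZnF4), 281.2 (ZnF1) and 335.4 RPKM (wt) in fraction C and 18.7 (ZnF4), 739.4 (ZnF1) and 568.7 RPKM (wt) in fraction B, and Rag1 and Rag2, the recombinase genes, were also lower in ZnF4 than in wt in both fractions, while Il7r, Cd79b and Igll1 were higher in both. The ZnF1 library of fraction C stood apart: its 14 granulocyte and monocyte markers summed to 42440 RPKM and its 11 erythroid markers to 4315 RPKM, against ranges of 1012 to 3789 and of 125.8 to 328.6 RPKM over the other 5 libraries. All 14 and all 11 of these markers were above 0 in every library. The 8 NK markers summed to 9.4 (ZnF4), 106.8 (ZnF1) and 44.8 RPKM (wt) in fraction C and 2.5 (ZnF4), 54.7 (ZnF1) and 86.2 RPKM (wt) in fraction B. Ncr1 was at 0 in both ZnF4 libraries, and Gzma, Gzmb, Ccl5, Klrd1 and Klrb1c were also at 0 in that of fraction B. The 8 plasmacytoid dendritic cell markers, all above 0 in every library, summed to between 171.8 and 323.3 RPKM. Irf8 was the highest of them in every library, at 75.4 to 130.1 RPKM, so the sums say little about the others. Of the 8, 5 were lower and 3 higher in ZnF4 than in wt cells of fraction C, and 6 were lower and 2 higher in fraction B. At least 2-fold lower were 4 in fraction C and 5 in fraction B, and 1 was at least 2-fold higher in each. The targeted gene Ikzf1 had 425.1 (ZnF4), 154.1 (ZnF1) and 169.4 RPKM (wt) in fraction C and 431.6 (ZnF4), 181.5 (ZnF1) and 150.3 RPKM (wt) in fraction B, values per whole transcript that do not show a removed finger. Xist, transcribed from the inactive X chromosome, was listed at 0 in the 4 mutant libraries and had 91.9 RPKM in fraction C and 81.3 RPKM in fraction B of wt, while the Y-linked Ddx3y ran from 11.9 to 15 RPKM in the mutants and was listed at 0 in wt. Sex-linked expression and the mutant genotypes therefore cannot be told apart in any comparison with wt.

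RefSeq promoter windows, 250 bases before to 50 bases after a transcript start (GRCm38.p6), were held for 36 of the 43 members, with 46 windows in all. They were searched on both strands for the E2F letters TTTCCCGC, TTTCGCGC, TTTGCCGC and TTTGGCGC. A match stood in 15 of the 46 windows, or 32.6%. For comparison, it stood in 4.15% of 9928 windows of genes tested and in 2.26% of all 32851 windows searched. The windows of genes tested covered 7791 of the 10943 genes tested, and the windows searched did not cover every chromosome. The CCAAT letters stood in 60.9% of the members' windows, compared with 38.2% of the windows of genes tested and 37.4% of all windows. For TTTGAA, the letters of the cell cycle homology region found in promoters of mitotic genes, the shares were 13%, 12.0% and 17.9% in the same sets of windows. The Ikaros core letters TGGGAA stood in 39.1%, 22.7% and 25.6%. None of these words contains another, though neighbouring matches can overlap at their ends. A match is a run of letters and not evidence of binding. The stretches of 160 bases upstream of the start that hold an E2F match and overlap no annotated exon (GENCODE M21) are shown, with the matches in capitals, because E2F letters had the largest ratio of shares between the members' windows and all others, read 5′ to 3′ on the strand of the gene.
Mcm6 (chr1:128359706-128359865, minus strand): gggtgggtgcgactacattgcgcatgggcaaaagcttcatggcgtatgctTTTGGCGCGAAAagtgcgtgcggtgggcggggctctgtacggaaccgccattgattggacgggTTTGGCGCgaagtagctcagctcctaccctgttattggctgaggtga
Mcm5 (chr8:75109349-75109508, plus strand): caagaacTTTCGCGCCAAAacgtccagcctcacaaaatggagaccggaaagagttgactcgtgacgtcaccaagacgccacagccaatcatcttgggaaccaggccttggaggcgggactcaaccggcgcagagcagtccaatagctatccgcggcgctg
Cdc6 (chr11:98907991-98908150, plus strand): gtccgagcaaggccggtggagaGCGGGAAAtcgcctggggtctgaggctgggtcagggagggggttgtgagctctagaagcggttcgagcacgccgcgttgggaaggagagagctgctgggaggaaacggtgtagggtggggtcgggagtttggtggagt
Pola1 (chrX:93632156-93632315, minus strand): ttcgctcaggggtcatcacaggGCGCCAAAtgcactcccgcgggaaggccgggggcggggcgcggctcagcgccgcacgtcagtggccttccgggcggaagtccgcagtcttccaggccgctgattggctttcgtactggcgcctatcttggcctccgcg
The stretch of Mcm6 holds matches at positions -110, -106 and -47 counted from the start, the first 2 of them overlapping on opposite strands, and that of Mcm5 holds an overlapping pair at -153 and -149. Cdc6 and Pola1 hold 1 match each, both at -138.

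Across the 6 libraries the module had a common profile: highest in wt cells of fraction C and lowest in ZnF4 cells of fraction B. Added up, the 43 genes reached 2972 (ZnF4), 2241 (ZnF1) and 3680 RPKM (wt) in fraction C and 1682 (ZnF4), 2860 (ZnF1) and 2569 RPKM (wt) in fraction B. The highest library was that of wt, fraction C, for 36 of 43 members, and the lowest was that of ZnF4, fraction B, for 38 of 43. When each library was rescaled on its proB markers (the proB marker scale) the numbers were 27 and 38, with ZnF1 of fraction C highest for the other 16. On the deposited scale both held for 34 of 43 members, a pattern that 13.3% of all genes tested also showed. The 9 members outside it were Cdt1, Gins3, Prim2, Pold1, Rfc1, Rfc3, Tyms, Tk1 and E2f2. In these bulk samples fewer cycling cells and less RNA per cell cannot be told apart.

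**Figure D1:**
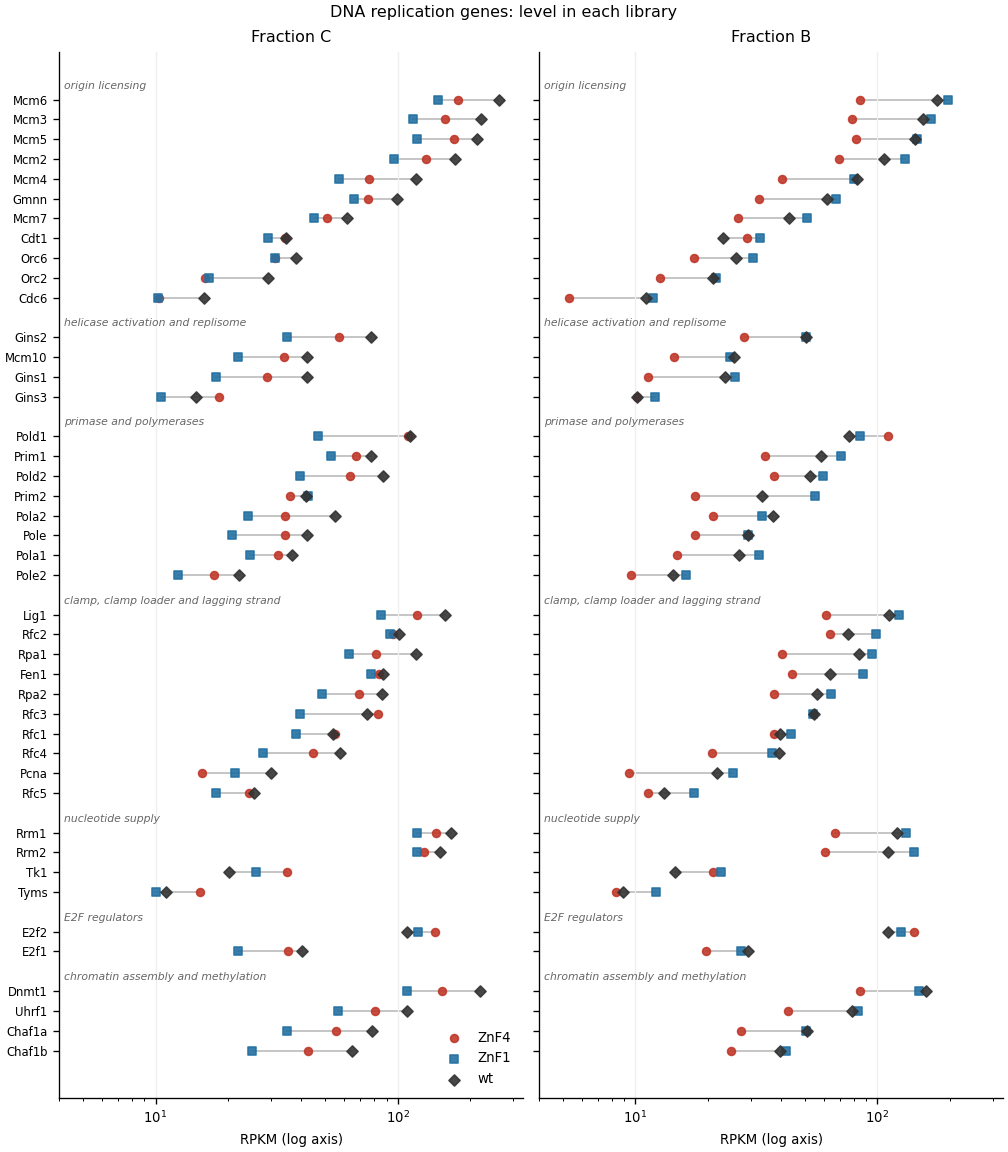
Level of each of the 43 DNA replication genes in RPKM on a log axis, fraction C left and fraction B right, with circles for ZnF4, squares for ZnF1 and diamonds for wt, 1 library each, and a grey line spanning the 3 genotypes. In fraction C the ZnF1 square lies leftmost and wt rightmost for most genes, while in fraction B the ZnF4 circle lies leftmost.

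Licensing genes, with 11 members the largest step, carried the largest summed level of the 7 steps, and a sum grows with the number of genes. Their sum was 932.1 (ZnF4), 734.5 (ZnF1) and 1267 RPKM (wt) in fraction C and 476.7 (ZnF4), 935.3 (ZnF1) and 849.6 RPKM (wt) in fraction B, so that ZnF4 cells had 73.6% of the wt sum in fraction C and 56.1% of it in fraction B. Mcm6, a subunit of the MCM helicase, had the highest level per length of the members as a mean over the 6 libraries, though not in every library, with 177.4 (ZnF4), 147.3 (ZnF1) and 262.8 RPKM (wt) in fraction C and 84.3 (ZnF4), 196.4 (ZnF1) and 176.5 RPKM (wt) in fraction B. Its ZnF4 level was below wt in both fractions, and in fraction B it was also far below ZnF1. The log2 difference of Mcm6, on the log2(RPKM + 1) scale used for all differences here, was -0.56 for ZnF4 minus wt in fraction C and -1.06 in fraction B. Mcm4, another subunit of the ring, had 75.9 (ZnF4), 57.1 (ZnF1) and 119.4 RPKM (wt) in fraction C and 40.3 (ZnF4), 80.2 (ZnF1) and 82.1 RPKM (wt) in fraction B. Cdc6, the loader of the ring, was much scarcer, with 10.3 (ZnF4), 10.2 (ZnF1) and 15.8 RPKM (wt) in fraction C and 5.3 (ZnF4), 11.8 (ZnF1) and 11.1 RPKM (wt) in fraction B. Orc2, of the origin recognition complex, had 16 (ZnF4), 16.7 (ZnF1) and 29.1 RPKM (wt) in fraction C and 12.6 (ZnF4), 21.6 (ZnF1) and 21 RPKM (wt) in fraction B. For these 3 genes ZnF4 lay below both other genotypes in fraction B, and for Cdc6 and Orc2 the mutants stood close together in fraction C, both under wt. Mcm2, Mcm3, Mcm5, Mcm7, Orc6 and Gmnn, the geminin gene whose product holds Cdt1 in check, also had less in ZnF4 than in wt cells in both fractions. Orc2 stood out within the group because its ZnF4 minus wt difference was no smaller in fraction C (-0.82) than in fraction B (-0.69). Cdt1, which brings the MCM ring to the origin, was the exception among the 11: it had 34.2 (ZnF4), 29.1 (ZnF1) and 34.7 RPKM (wt) in fraction C and 28.9 (ZnF4), 32.8 (ZnF1) and 23.1 RPKM (wt) in fraction B. On the deposited scale ZnF4 and wt were within 1.01-fold in fraction C, and in fraction B wt was the lowest of the 3 genotypes. The ZnF4 minus wt difference of Cdt1 in fraction B was 0.31. The proB marker factor of ZnF4 exceeded that of wt by 0.28 (log2) there and by 0.48 in fraction C. After rescaling on the proB markers, ZnF4 cells of fraction C therefore held less Cdt1 than wt cells. Little of its fraction B difference was left, so this exception depends on the scaling.

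The genes of helicase activation and of the polymerases followed the licensing genes with a pair of exceptions. Gins1, Gins2 and Gins3 encode parts of the GINS complex, which joins the MCM ring in the active helicase, and Mcm10 helps to start unwinding. Gins1 had 28.8 (ZnF4), 17.7 (ZnF1) and 42.4 RPKM (wt) in fraction C and 11.3 (ZnF4), 25.9 (ZnF1) and 23.4 RPKM (wt) in fraction B. On this transcript ZnF4 was the lowest in fraction B and ZnF1 the lowest in fraction C. The other Gins1 transcript, at 73.1% of its mean level, had 18.9 (ZnF4), 22.6 (ZnF1) and 23.3 RPKM (wt) in fraction C and 10.9 (ZnF4), 17.8 (ZnF1) and 15.8 RPKM (wt) in fraction B. There ZnF4 was the lowest in both fractions, so the order of the mutants in fraction C depends on the transcript. Gins3 differed, with 18.3 (ZnF4), 10.5 (ZnF1) and 14.7 RPKM (wt) in fraction C and 10.2 (ZnF4), 12 (ZnF1) and 10.2 RPKM (wt) in fraction B, so that ZnF4 equalled wt in fraction B and was the highest of the 3 in fraction C, although on the proB marker scale its fraction C difference from wt was -0.15. Pola2, the accessory subunit of the primase-polymerase complex, had 34.2 (ZnF4), 24 (ZnF1) and 55.1 RPKM (wt) in fraction C and 21 (ZnF4), 33.3 (ZnF1) and 37.1 RPKM (wt) in fraction B. ZnF4 lay below wt in both fractions, by -0.67 in fraction C and -0.79 in fraction B on the log2 scale. Pola1, Prim1, Pole, Pole2 and Pold2 also had less in ZnF4 than in wt in both fractions. They encode a catalytic subunit, a primase subunit, a pair of the epsilon subunits and a delta subunit. Prim2, the large primase subunit, had 35.9 (ZnF4), 42.7 (ZnF1) and 41.7 RPKM (wt) in fraction C and 17.6 (ZnF4), 55.3 (ZnF1) and 33.4 RPKM (wt) in fraction B, and it was the only member with its highest level in the ZnF1 library of fraction B. Pold1, the catalytic subunit of polymerase delta, went against the module. Pold1 had 110.6 (ZnF4), 46.7 (ZnF1) and 112.2 RPKM (wt) in fraction C and 110.8 (ZnF4), 84.6 (ZnF1) and 76.4 RPKM (wt) in fraction B. On the deposited scale the ZnF4 library was the highest of fraction B and matched wt in fraction C. The proB marker factor was higher in ZnF4 than in wt by 0.48 (log2) in fraction C. On the proB marker scale Pold1 was therefore lower in ZnF4 than in wt there, though still highest in ZnF4 in fraction B. Among the genes tested its neighbours in the RefSeq annotation were Spib, 656 bases away, and Nr1h2, 800 bases away. Nr1h2 had 62.4 (ZnF4), 45.1 (ZnF1) and 47.8 RPKM (wt) in fraction C. In fraction B it had 81.3 (ZnF4), 68.1 (ZnF1) and 48.8 RPKM (wt). Spib, a B-lineage transcription factor gene, had 507.1 (ZnF4), 130 (ZnF1) and 179.7 RPKM (wt) in fraction C. In fraction B it had 784.5 (ZnF4), 191.5 (ZnF1) and 297.3 RPKM (wt). On the deposited scale the ZnF4 libraries held the most Spib and the most Nr1h2 in both fractions. On the proB marker scale Nr1h2 was not highest in ZnF4 in fraction C. How reads near the end of a neighbouring gene were assigned is not given in the sources used here. The part of Spib or Nr1h2 in the Pold1 value was not tested. Members that kept to the module also overlap genes tested in that annotation. These are Chaf1a with Ubxn6, E2f1 with Necab3, Gins2 with Gse1, and Mcm7 with Ap4m1 and Mir25. Others are Pole2 with Klhdc1, Rfc4 with Eif4a2 and Rpa1 with Smyd4. Eif4a2 had 40.5 (ZnF4), 28.2 (ZnF1) and 44.5 RPKM (wt) in fraction C. In fraction B it had 38.6 (ZnF4), 36.2 (ZnF1) and 40.2 RPKM (wt). The part of these genes in the members' values was not tested.

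Among clamp, clamp loader and lagging strand genes the members divided into those with clearly less in ZnF4 cells and a set of loader genes with little difference on the deposited scale. Pcna, the sliding clamp, had the lowest ZnF4 minus wt difference of all 43 members in both fractions, with 15.6 (ZnF4), 21.3 (ZnF1) and 29.9 RPKM (wt) in fraction C and 9.4 (ZnF4), 25.2 (ZnF1) and 21.8 RPKM (wt) in fraction B. The log2 difference of Pcna was -0.90 in fraction C and -1.13 in fraction B, and ZnF4 lay below ZnF1 in both. Pcna has annotated pseudogenes, Pcna-ps1 and Pcna-ps2, and the treatment of reads shared with them is not given in the sources used here, so its level is uncertain. Rpa1, which covers single-stranded DNA, had 81.6 (ZnF4), 62.9 (ZnF1) and 118.6 RPKM (wt) in fraction C and 40.5 (ZnF4), 95.2 (ZnF1) and 83.6 RPKM (wt) in fraction B. Lig1, the ligase that joins lagging strand fragments, had 120.2 (ZnF4), 85.4 (ZnF1) and 157 RPKM (wt) in fraction C and 61.4 (ZnF4), 122.4 (ZnF1) and 111.4 RPKM (wt) in fraction B. Both had the same order, with ZnF4 between wt and ZnF1 in fraction C and lowest in fraction B. Fen1, the nuclease that trims the fragments, had 84 (ZnF4), 77.7 (ZnF1) and 86.9 RPKM (wt) in fraction C and 44.2 (ZnF4), 86.8 (ZnF1) and 63.9 RPKM (wt) in fraction B, so ZnF4 was near wt in fraction C and below it in fraction B. Of the 5 genes of replication factor C, which opens and loads the clamp, Rfc4 had log2 differences of -0.37 in fraction C and -0.89 in fraction B between ZnF4 and wt. Those of Rfc1 (0.03 and -0.07), Rfc2 (-0.08 and -0.25), Rfc3 (0.15 and -0.02) and Rfc5 (-0.06 and -0.20) were smaller in both fractions. Rfc3 had 82.9 (ZnF4), 39.7 (ZnF1) and 74.6 RPKM (wt) in fraction C and 54 (ZnF4), 54.1 (ZnF1) and 54.7 RPKM (wt) in fraction B, with all 3 genotypes level in fraction B. On the proB marker scale the differences of these 4 loader genes in fraction C were -0.44 (Rfc1), -0.55 (Rfc2), -0.32 (Rfc3) and -0.52 (Rfc5), so that Rfc1 and Rfc3 change direction.

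Nucleotide supply and the E2F regulators held the 2 members that were higher in ZnF4 than in wt cells of both fractions, Tk1 and E2f2, of which E2f2 was not higher under every scaling. Rrm1 and Rrm2, the subunits of ribonucleotide reductase, which makes deoxyribonucleotides, kept to the module: Rrm2 had 128.4 (ZnF4), 120.1 (ZnF1) and 149 RPKM (wt) in fraction C and 60.9 (ZnF4), 142 (ZnF1) and 110.2 RPKM (wt) in fraction B. ZnF4 was lowest of the genotypes in fraction B, and lay between wt and ZnF1 in fraction C. Tk1, the thymidine kinase of the salvage pathway, had 35 (ZnF4), 26 (ZnF1) and 20.2 RPKM (wt) in fraction C and 21 (ZnF4), 22.6 (ZnF1) and 14.6 RPKM (wt) in fraction B. Both mutants were above wt in both fractions. The gene Afmid overlaps Tk1 in the RefSeq annotation and had 9.5 (ZnF4), 10.5 (ZnF1) and 5.3 RPKM (wt) in fraction C and 8.2 (ZnF4), 4.4 (ZnF1) and 5.2 RPKM (wt) in fraction B, and without knowledge of strand the reads of the pair cannot be told apart. Tyms, which makes thymidylate, had 15.3 (ZnF4), 10 (ZnF1) and 11 RPKM (wt) in fraction C and 8.3 (ZnF4), 12.2 (ZnF1) and 8.9 RPKM (wt) in fraction B, so that ZnF4 was highest in fraction C and lowest in fraction B, with a fraction C difference from wt that went to -0.003 on the proB marker scale. Its pseudogene Tyms-ps makes the level uncertain as well. E2f2, an activating E2F factor, had 143.3 (ZnF4), 121.4 (ZnF1) and 109.4 RPKM (wt) in fraction C and 141.8 (ZnF4), 124.7 (ZnF1) and 110.6 RPKM (wt) in fraction B. ZnF4 was highest, ZnF1 intermediate and wt lowest in both fractions on the deposited scale, but on the proB markers the ZnF4 minus wt difference was -0.09 in fraction C and 0.08 in fraction B. On the deposited scale the level of E2f2 hardly depended on the fraction in any genotype. E2f1, the other activator among the members, had 35.2 (ZnF4), 22 (ZnF1) and 40.2 RPKM (wt) in fraction C and 19.5 (ZnF4), 27.3 (ZnF1) and 29.1 RPKM (wt) in fraction B, with ZnF4 between wt and ZnF1 in fraction C and lowest in fraction B.

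All 4 genes of chromatin assembly and methylation had less in ZnF4 than in wt cells in both fractions. Their sum reached 332.1 (ZnF4), 226.2 (ZnF1) and 472.4 RPKM (wt) in fraction C and 179.8 (ZnF4), 325.1 (ZnF1) and 328.7 RPKM (wt) in fraction B. Dnmt1, which copies methylation onto the new strand, had 152.7 (ZnF4), 109.7 (ZnF1) and 219.8 RPKM (wt) in fraction C and 85 (ZnF4), 149.1 (ZnF1) and 159.4 RPKM (wt) in fraction B. Chaf1b, a subunit of the histone chaperone CAF-1, had 42.6 (ZnF4), 25 (ZnF1) and 65 RPKM (wt) in fraction C and 24.8 (ZnF4), 41.9 (ZnF1) and 39.7 RPKM (wt) in fraction B. In fraction B the ZnF1 and wt libraries were close and ZnF4 was below both, and in fraction C wt was above both mutants. Uhrf1, which guides Dnmt1 to the fork, had ZnF4 minus wt log2 differences of -0.43 in fraction C and -0.86 in fraction B. Those of Chaf1a, the large CAF-1 subunit, were -0.48 and -0.88.

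Set against all genes, the ZnF4 difference from wt was larger in fraction B than in fraction C. In fraction C the members' median difference was -0.31 (log2), against -0.05 over the 10943 genes tested. Of the 43 members 37 were lower in ZnF4, beside 5799 of the 10943 genes. There 5 members were at least 1.5-fold lower and 1 was higher, beside 15.8% and 9.48% of all genes, so the count past that size was no larger than the background, and none was 2-fold apart, beside 6.12% lower and 3.55% higher. In fraction B the median was -0.75, against -0.09 over all genes. In that fraction 38 of 43 members were lower in ZnF4 and 4 were higher, beside 6111 and 4690 of the 10943 genes. At least 1.5-fold lower were 27, a size that 21.3% of all genes reached. At 2-fold there were 4 members, beside 9.81% of all genes, and none of the 43 was 1.5-fold higher, against 10.1% of all genes. The difference was lower in fraction B than in fraction C for 40 of 43 members, the exceptions being Cdt1, Orc2 and Pold1. Of all genes tested 57.4% showed this order, and it was not tested because each combination had 1 library. In ZnF4 cells the granulocyte and monocyte markers summed to 1750 RPKM in fraction C, against 2655 RPKM in wt, and to 1012 RPKM in fraction B, against 3789 RPKM in wt, and the part of this in the members' difference was not tested.

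**Figure D2:**
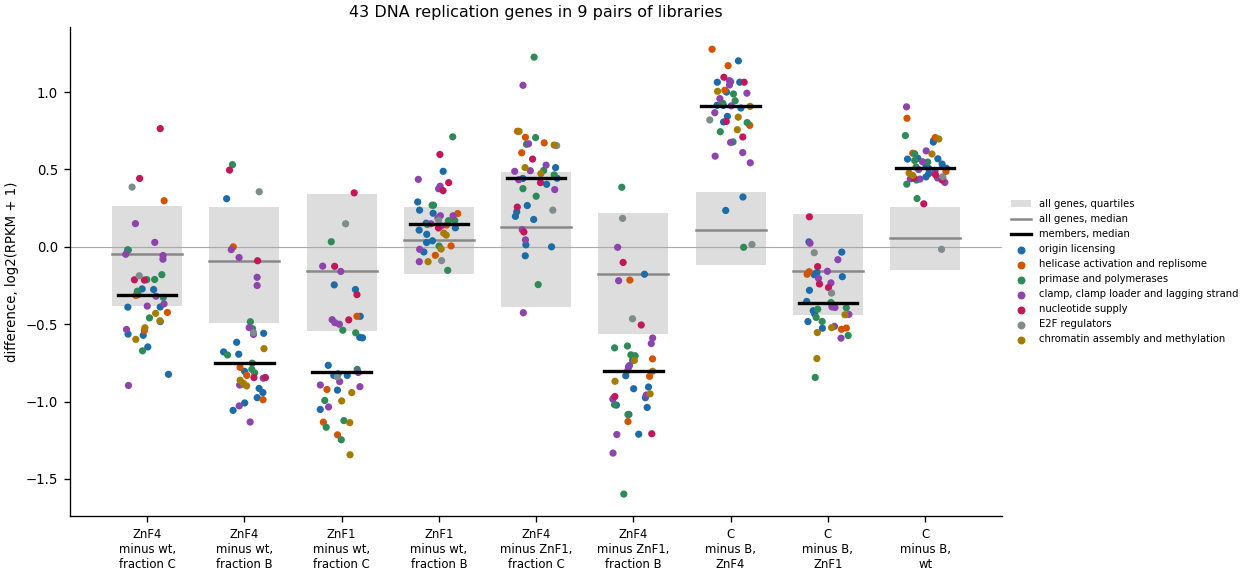
Differences of the 43 genes in log2(RPKM + 1) for 9 pairs of libraries, each point a gene coloured by step, black bars the members' medians, grey bars and boxes the median and quartiles of all 10943 genes. The members lie below most genes for ZnF4 minus wt in fraction B and above most genes for C minus B in ZnF4 and in wt.

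ZnF4 lay below wt in both fractions for 35 of 43 members, compared with 45.4% of all genes, and above wt in both for 2 members, Tk1 and E2f2 (E2f2 in fraction B alone on the proB markers), compared with 35.1%. The model across genes (limma on log2(RPKM + 1), with genotype and fraction as additive terms over all 6 libraries) called none of the 43 for ZnF4 minus wt at a Benjamini-Hochberg adjusted p under 0.05. The lowest adjusted p of a member was 0.188, 3 members had an unadjusted p under 0.05, beside 17.6% of all genes, and over all genes the limma model called 0.0183% lower and 0.00914% higher. The spread in this model comes from genotype differences that change between fractions. Its p-values measure only the spread between these libraries and not variation between animals. The labels do not say whether both fractions of a genotype came from the same mice. Without the ZnF1 library of fraction C, which stood apart in markers, limma called 24 members, 22 lower and 2 higher, where 19.3% of all genes were called lower and 12.2% higher. Leaving out the ZnF1 library of fraction B in its place gave 22 members, 21 lower and 1 higher, beside 19.1% and 11.8% of all genes. When any of the 4 wt and ZnF4 libraries was left out instead, the number was 0. The 4 wt and ZnF4 libraries alone gave 26 members, beside 19.4% of all genes called lower and 12.5% higher.

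The 22 members that passed as lower when that ZnF1 library was left out came from 5 of the 7 steps. They were 7 of 11 licensing genes (Cdc6, Gmnn, Mcm2, Mcm3, Mcm4, Mcm6 and Orc2), 3 of 4 of helicase activation (Gins1 on the chosen transcript, Gins2 and Mcm10) and 3 of 8 of the polymerases (Pola2, Pold2 and Pole2). A further 5 of 10 were clamp and lagging strand genes (Lig1, Pcna, Rfc4, Rpa1 and Rpa2), and all 4 chromatin genes passed. In this fit Pcna fell by 1.01 on the log2 scale (SE 0.114, limma adjusted p = 0.00831) and Mcm4 fell by 0.83 (SE 0.125, limma adjusted p = 0.0136). Pola2 fell by 0.73 (SE 0.097, limma adjusted p = 0.0107) and Dnmt1 by 0.71 (SE 0.132, limma adjusted p = 0.0211). Tk1 rose by 0.63 (SE 0.116, limma adjusted p = 0.0207) and E2f2 by 0.37 (SE 0.097, limma adjusted p = 0.0464). Rrm1 and Rrm2, at -0.53 each, did not pass (limma adjusted p = 0.0777 and 0.0779). The fit has 1 residual degree of freedom, and all of these calls are absent from the model of 6 libraries.

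**Figure D3:**
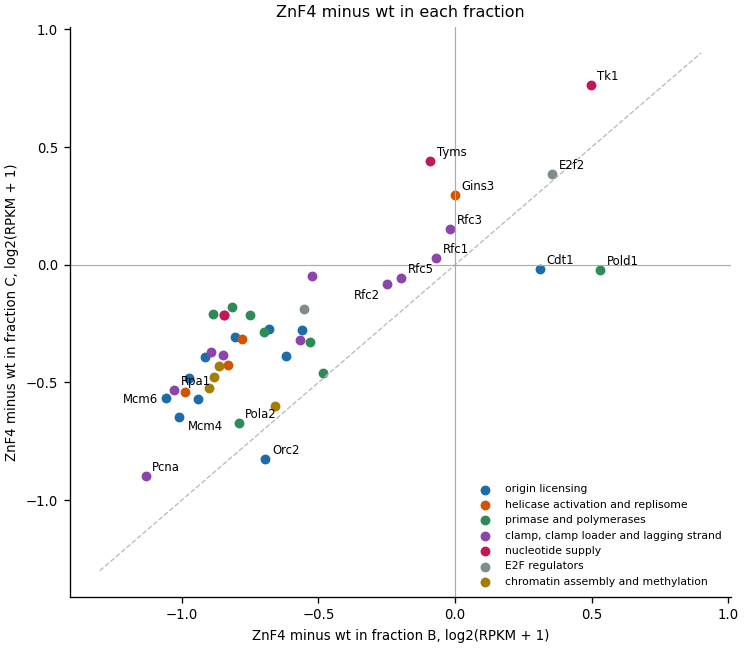
ZnF4 minus wt difference of each member in log2(RPKM + 1), fraction B on the horizontal axis and fraction C on the vertical axis, coloured by step, with equal differences on the dashed line. Most members lie in the lower left above the line, and on this deposited scale Tk1 and E2f2 lie in the upper right, where E2f2 does not stay on the proB markers.

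ZnF1 cells had the module below wt in fraction C and slightly above it in fraction B, the second of these only on the deposited scale and on the median ratio. In fraction C the median difference was -0.81 (log2), against -0.16 over all genes. Of the 43 members 40 were lower, beside 6439 of the 10943 genes tested. There 26 members were at least 1.5-fold lower, beside 23.0% of all genes, and none was 1.5-fold higher, beside 19.1%. At 2-fold 9 were lower, beside 7.39%. Chaf1b was lowest at -1.34, then Pold1 at -1.25 and Gins1 at -1.22 (-0.04 on its other transcript), while Tk1 was at 0.35. The ZnF1 library of fraction C is the one whose granulocyte and monocyte markers summed to 42440 RPKM, against 2655 RPKM in wt, and whose proB markers summed to 2123 RPKM, against 2820 RPKM in wt. With the proB markers as the scale its members' median was -0.26, against 0.36 over all genes, and 4 members were 1.5-fold lower and 3 higher, beside 6.52% and 37.0% of all genes on that scale. The part of the other cell types' RNA in this difference was not tested. In fraction B the median difference was 0.15, against 0.04 over all genes. There 35 of 43 members were higher, beside 5926 of the 10943 genes. Of the 43, 2 were at least 1.5-fold higher (Prim2 and Tk1) and none was 1.5-fold lower, beside 7.56% and 6.58% of all genes. None was 2-fold higher, beside 2.07%. When each library was rescaled on the proB markers this median became -0.24, with -0.31 over all genes, so the direction flips with the scaling. In limma over all 6 libraries 0 of 43 members passed for ZnF1 minus wt, beside 0.0183% of all genes called lower and 0.00914% higher, and no member had an unadjusted p under 0.05, beside 9.30% of all genes. When either ZnF1 library is left out the ZnF1 arm is 1 library, assumed to vary like the others, and the spread, on 1 residual degree of freedom, comes from the wt and ZnF4 libraries. Without the fraction C library limma called none for ZnF1 minus wt, beside 0.0822% of all genes lower and 0.064% higher. Without the ZnF1 library of fraction B, when this comparison rests on the fraction C library alone, limma called 26 members, all lower, beside 20.7% of all genes called lower and 16.9% higher. The comparisons of ZnF4 and of ZnF1 with wt share the wt libraries.

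Between the mutants the order depended on the fraction. In fraction C the median ZnF4 minus ZnF1 difference was 0.44, against 0.13 over all genes, with 12 members at least 1.5-fold higher, beside 20.0% of all genes, and none 1.5-fold lower, beside 20.4%. These counts move far with the scaling: on the median ratio 2 were higher and 1 lower, beside 13.1% and 24.1% of all genes, and on the proB markers 0 were higher and 21 lower, beside 3.59% and 66.8%. At 2-fold on the deposited scale 2 were higher, beside 7.41%. The fraction C median flips with the scaling, since on the proB marker scale it was -0.57, against -0.83 over all genes. In fraction B the median was -0.80, against -0.17 over all genes, and 34 of 43 members were at least 1.5-fold lower, beside 24.3% of all genes, and 11 were 2-fold lower, beside 10.9%. None was 1.5-fold higher, beside 11.3%. Pold1 and E2f2 were the 2 members higher in ZnF4 there. Prim2 was furthest apart, at 17.6 RPKM in ZnF4 cells and 55.3 RPKM in ZnF1 cells of fraction B. On the deposited scale ZnF4 was above ZnF1 in fraction C and below it in fraction B for 37 of 43 members, compared with 28.2% of all genes. In limma over all 6 libraries 0 of 43 members passed for ZnF4 minus ZnF1, where 0.676% of all genes were called lower and 1.14% higher, and 1 member had an unadjusted p under 0.05, beside 22.7% of all genes. In the next 2 fits the ZnF1 arm is again 1 library and its spread is taken from the other genotypes. Without the ZnF1 library of fraction C, limma called 28 members lower and none higher, beside 16.1% and 8.43% of all genes. Without that of fraction B it called none lower and 7 higher, beside 19.4% and 18.2% of all genes: Chaf1b, Gins3, Pola2, Pold1, Pold2, Rfc1 and Rfc3.

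The step from fraction B to fraction C went with more of the replication genes in ZnF4 and in wt. In ZnF4 the median C minus B difference was 0.91, against 0.11 over all genes. Higher in fraction C were 42 of 43 members, beside 6711 of the 10943 genes tested. At least 1.5-fold higher were 38, beside 11.7% of all genes. At 2-fold 13 were higher, beside 2.76%, and none was 1.5-fold lower, beside 3.44%. In wt the median was 0.51, against 0.06, with 42 of 43 higher, beside 6206 of the 10943 genes. At least 1.5-fold higher were 11, beside 4.83%. That count was 7 on the median ratio, beside 3.03%, and 40 on the proB markers, beside 15.8%. On the deposited scale none was 1.5-fold lower, beside 4.48%, and none was 2-fold higher, beside 0.338%. Gins1, Gmnn and Mcm10 had the largest ZnF4 differences (1.28, 1.20 and 1.17), that of Gins1 being 0.74 on its other transcript, and those of Pold1 and E2f2 were -0.003 and 0.015. The ZnF4 step was larger than the wt step for 40 of 43 members, the same libraries and exceptions as for the ZnF4 difference above, and thus no separate result. In ZnF1 the median was -0.37, against -0.16, with 40 of 43 lower in fraction C, beside 6828 of the 10943 genes. At least 1.5-fold lower were 3, beside 15.7% of all genes. None was 1.5-fold higher, beside 15.3%, or 2-fold lower, beside 4.16%. That direction reversed to 0.80, against 0.94 over all genes, on the proB marker scale. In limma over all 6 libraries 0 of 43 members passed for fraction C minus B and 0 of all genes, while 1 member had an unadjusted p under 0.05, beside 4.67% of all genes. Without the ZnF1 library of fraction C 0 passed, and 41 had an unadjusted p under 0.05, beside 26.0% of all genes.

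**Figure D4:**
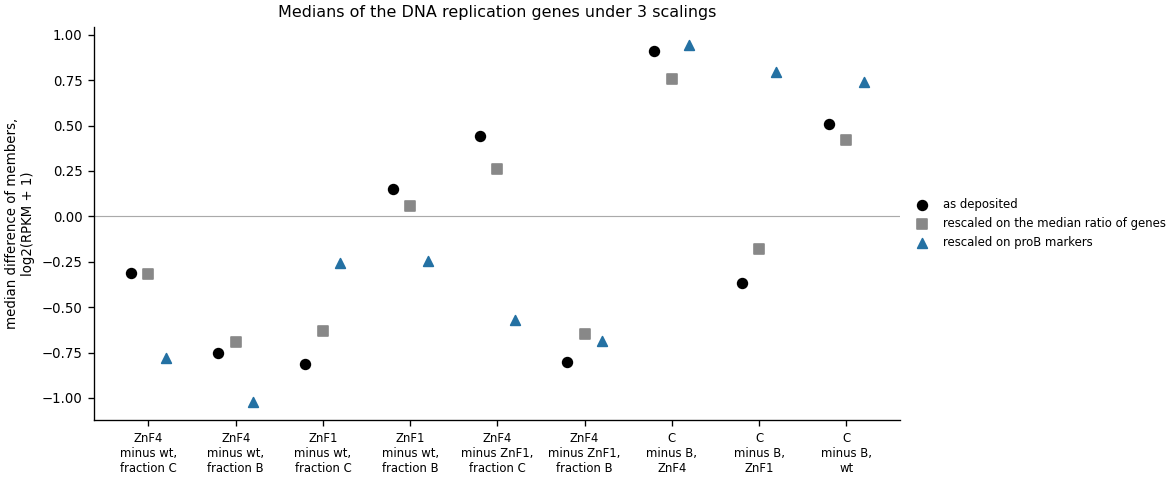
Median difference of the 43 genes in log2(RPKM + 1) for the 9 pairs of libraries, with the values as deposited (circles), rescaled on the median ratio of genes (squares) and rescaled on the 12 proB markers (triangles). ZnF4 minus wt is below 0 under all 3 scalings in both fractions, while the medians of 3 comparisons with the ZnF1 libraries change side on the proB markers.

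The direction of the members' median ZnF4 difference from wt was the same under the 3 scalings. On the proB markers its median was -0.78 in fraction C and -1.03 in fraction B, where all genes stood at -0.46 and -0.33. The count of members at least 1.5-fold lower in fraction C was 32 on that scale, beside 39.5% of all genes, with 0 higher, beside 3.55%. This scale divides each library by the median over the 12 markers of their log2 levels, each centred over the libraries, and that factor was higher in ZnF4 than in wt by 0.48 (log2) in fraction C and by 0.28 in fraction B. On the median ratio the medians were -0.32 in fraction C and -0.69 in fraction B.

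Other genes of replication and the cell cycle, from lists chosen beside the members, were set beside the module. Among 32 other replication factors, 26 had less in ZnF4 cells than in wt cells of fraction C and 29 of fraction B. Over all 10943 genes tested 5799 and 6111 had less. The medians of these 32 factors were -0.23 and -0.57. Dna2, a helicase and nuclease of the lagging strand, had 15 (ZnF4), 22 (ZnF1) and 28.5 RPKM (wt) in fraction C and 6.7 (ZnF4), 25.5 (ZnF1) and 22.5 RPKM (wt) in fraction B. Its ZnF4 level was the lowest of the genotypes in both fractions. Pold4, the smallest subunit of polymerase delta, went the other way, with 129.3 (ZnF4), 46.6 (ZnF1) and 52.9 RPKM (wt) in fraction C and 115.8 (ZnF4), 66 (ZnF1) and 50.9 RPKM (wt) in fraction B, the highest levels being those of both ZnF4 libraries. With the ZnF1 fraction C library left out, limma called 12 of the 32 lower and 1 higher, beside 19.3% and 12.2% of all genes.

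The 22 other nucleotide supply genes include genes that make purines and pyrimidines and the folate units for them. Others act in salvage or, as Samhd1 does, in breakdown. The ZnF4 minus wt medians of this list lay further below 0 than those of the members. These medians were -0.80 in fraction C and -1.01 in fraction B. Once the ZnF1 fraction C library was left out, 16 of the 22 passed limma as lower and 3 as higher. The shares over all genes were 19.3% and 12.2%. Shmt1, which supplies one-carbon units for thymidylate, had 17.9 (ZnF4), 17.4 (ZnF1) and 64.1 RPKM (wt) in fraction C and 7.6 (ZnF4), 23.3 (ZnF1) and 31.9 RPKM (wt) in fraction B. Impdh1, of guanine nucleotide synthesis, had 43 (ZnF4), 84.4 (ZnF1) and 162.5 RPKM (wt) in fraction C and 32.3 (ZnF4), 196.5 (ZnF1) and 160.8 RPKM (wt) in fraction B. For both genes the ZnF4 level was below wt in both fractions, and in fraction B it was also below ZnF1. Samhd1, which breaks down deoxyribonucleotides, had 62.3 (ZnF4), 124 (ZnF1) and 27.1 RPKM (wt) in fraction C and 116.8 (ZnF4), 35 (ZnF1) and 59.1 RPKM (wt) in fraction B, so ZnF4 was above wt in both fractions and ZnF1 of fraction C was highest of all. Rrm2b, the alternative small subunit of ribonucleotide reductase, had 12.1 (ZnF4), 5.4 (ZnF1) and 6.9 RPKM (wt) in fraction C and 18.1 (ZnF4), 7.6 (ZnF1) and 10.3 RPKM (wt) in fraction B, with both ZnF4 libraries highest in their fraction.

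Mitosis genes had a higher median than the members in fraction C. Their 32 genes had a ZnF4 minus wt median of 0.15 there, with 24 higher and 8 lower, against -0.31 and 37 of 43 lower for the members. Over all genes tested 5799 of 10943 were lower there. On the proB marker scale the mitosis median there was -0.32 with all 32 lower, so its direction flips, beside -0.78 for the members and -0.46 for all genes. In fraction B all 32 were lower, beside 6111 of the 10943 genes. Their median there was -0.66, close to the -0.75 of the members. Aurka, a spindle kinase, had 55.5 (ZnF4), 57.5 (ZnF1) and 50.4 RPKM (wt) in fraction C and 21.9 (ZnF4), 40.5 (ZnF1) and 35.3 RPKM (wt) in fraction B. Its ZnF4 level was above wt in fraction C on the deposited scale but not on the proB markers, where the difference was -0.33, and it was the lowest in fraction B. The C minus B median of the mitosis genes was 1.11 in ZnF4, 0.08 in ZnF1 (1.24 on the proB markers) and 0.34 in wt. With the ZnF1 fraction C library left out, limma called 1 of the 32 lower for ZnF4 minus wt and none higher. The shares over all genes were 19.3% and 12.2%. The difference between the lists was not tested.

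**Figure D5:**
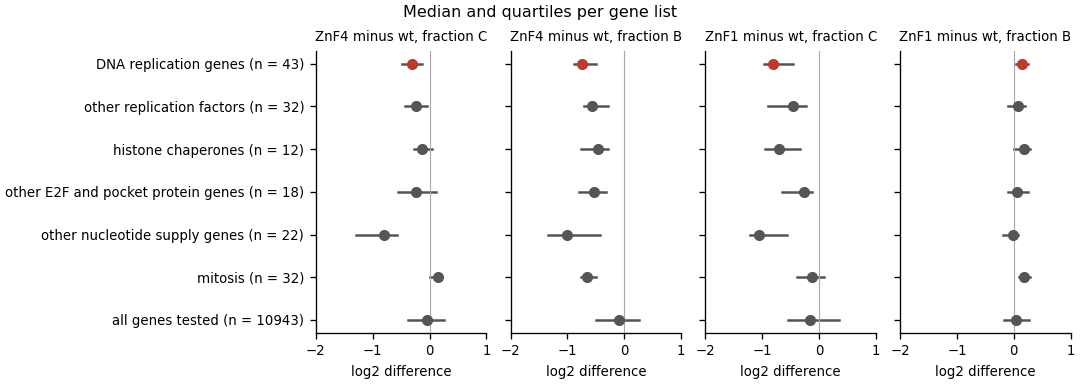
Median (dot) and quartiles (line) of the differences in log2(RPKM + 1) for the DNA replication genes (red) and 5 other lists beside all genes tested, in 4 pairs of libraries. On this deposited scale, but not on the proB markers, the mitosis median lies right of 0 for ZnF4 minus wt in fraction C, where the replication median lies left of it, and the medians of all 6 gene lists lie left of 0 in fraction B.

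Among the 18 other E2F, cyclin and pocket protein genes, 12 had less in ZnF4 cells than in wt cells of fraction C and 15 of fraction B. Over all 10943 genes tested 5799 and 6111 had less. Ccne2, a cyclin of S phase entry, had 17.1 (ZnF4), 19.1 (ZnF1) and 36.6 RPKM (wt) in fraction C and 7.2 (ZnF4), 24 (ZnF1) and 26.4 RPKM (wt) in fraction B. Ccne1, its relative, had 21.5 (ZnF4), 30.2 (ZnF1) and 38.1 RPKM (wt) in fraction C and 9.6 (ZnF4), 35.9 (ZnF1) and 24.3 RPKM (wt) in fraction B. Both cyclins had their lowest level in ZnF4 cells of fraction B and less in ZnF4 than in wt in fraction C. Rb1, which restrains E2F factors, had 34.7 (ZnF4), 27.5 (ZnF1) and 24.3 RPKM (wt) in fraction C and 36.9 (ZnF4), 22.8 (ZnF1) and 25.2 RPKM (wt) in fraction B. ZnF4 was highest in both fractions on the deposited scale, but on the proB markers ZnF1 was highest in fraction C. With the ZnF1 fraction C library left out, 8 of the 18 passed limma as lower and 3 as higher, beside 19.3% and 12.2% of all genes. In that fit, with those shares over all genes, 3 of the 12 histone chaperone genes passed as lower and none as higher. Of the 12, 8 were lower in ZnF4 in fraction C and 11 in fraction B, beside 5799 and 6111 of the 10943 genes. Of 7 genes of inhibitors of cyclin-dependent kinases 4 passed the filter on low values. Cdkn1c had 3.7 (ZnF4), 0.9 (ZnF1) and 0.5 RPKM (wt) in fraction C and 6.3 (ZnF4), 2.2 (ZnF1) and 0.6 RPKM (wt) in fraction B, highest in ZnF4 in both fractions. Cdkn1a had 10.3 (ZnF4), 28.5 (ZnF1) and 23.5 RPKM (wt) in fraction C and 6.9 (ZnF4), 58.1 (ZnF1) and 31 RPKM (wt) in fraction B, lowest in ZnF4 in both.

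Genes other than the members could share the profile, among them Incenp of the mitosis list. By the root mean square distance of centred log2(RPKM + 1) values over the 6 libraries from the members' mean profile, the nearest gene that is not a member was Psip1, a chromatin-bound cofactor, at 0.018, with 31.3 (ZnF4), 23.2 (ZnF1) and 36.9 RPKM (wt) in fraction C and 16.9 (ZnF4), 29.6 (ZnF1) and 26.5 RPKM (wt) in fraction B. The next were 1110031I02Rik, 1700040I03Rik, Isy1, Incenp, Rqcd1, Polr2d, Mrpl42, Idh3a and Eme1, the last at 0.07. Members themselves had a median distance of 0.172, running from 0.037 for Pole2 to 0.498 for Pold1, and all genes tested had a median of 0.419. The profile is the mean of these same members, which brings them nearer to it by construction. The 15 members with E2F letters in a promoter window had a median ZnF4 minus wt difference of -0.31 in fraction C and -0.81 in fraction B, and the 21 with a window and no match had -0.31 and -0.66. For the Ikaros core letters the medians in fractions C and B were -0.32 and -0.69 with a match (18 members) and -0.21 and -0.70 without (18 members).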

How the data were processed

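Total RNA-seq values of 6 libraries of sorted mouse proB cells were analysed, grouped by the genotype and Hardy fraction in the sample labels. The authors deposited RPKM per RefSeq transcript, per the file headers, rounded to 0.1. Per the submitters' processing notes, TopHat, bedtools and the build mm9 were used, with no version stated. How shared reads were counted, and whether by strand, is not given in the sources used here.

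Of 26532 entries, 1 had no gene name. The transcript with the highest mean represented each of 22098 symbols, and the 10943 genes averaging 1 RPKM or more were tested. Depth is unknown: at best 28.8% to 41.5% of low values of short transcripts (up to 150 bases) came out as whole reads within 0.1 read. Differences are of log2(RPKM + 1), which understates changes of low genes. limma 3.58.1 (R 4.3.3, lmFit, eBayes with trend) was fitted with genotype and fraction as additive terms, with 2 residual degrees of freedom and Benjamini-Hochberg adjustment over all genes. The model was run on simulated data with far less spread than the members had (median residual SD 0.464, log2). The simulated shifts were larger than the members' differences and equal in both fractions, so that run gives no power or error rate here. The alternatives were another pseudocount, no filter, 2 rescalings, the mean over transcripts, a 2-fold threshold, fits without each library, fits of 4 libraries and genotype alone.

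The members may all be named by rule. Among the other lists, genes were picked for naming after their values were seen. Members, lists and tests were chosen with earlier results of these data known. Promoter sequences are from RefSeq (GRCm38.p6), another build than the authors', and were matched by symbol.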

Additional observations from a re-analysis of the deposited data

Results flagged for a closer look

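Several medians of the 43 DNA replication genes pointed in opposite directions in libraries under the same contrast. With 1 library for each genotype and fraction none of these differences was tested. ZnF1 minus wt had a median log2 difference of -0.812 in fraction C and 0.149 in fraction B. ZnF4 minus ZnF1 had a median of 0.443 in fraction C and -0.804 in fraction B. Fraction C minus B had a median of -0.366 in ZnF1, against 0.908 in ZnF4 and 0.507 in wt. Every one of the 3 opposed directions involves both ZnF1 libraries. Granulocyte and monocyte markers summed to 42440 RPKM in that of fraction C and to 1643 RPKM in that of fraction B. The part of either library in these directions was not tested.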

How the results depend on the processing

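The pseudocount of 0.25 RPKM, no filter on low values and the mean over transcripts kept the direction of all 9 medians and moved no count by over 1.5 times. Rescaling on the proB markers reversed 3 medians, to -0.244 for ZnF1 minus wt in fraction B, -0.571 for ZnF4 minus ZnF1 in fraction C and 0.797 for C minus B in ZnF1. It moved the median of ZnF4 minus wt in fraction C to -0.781 and that of ZnF1 minus wt in fraction C to -0.255. On that scale the members at least 1.5-fold apart became 32 lower and 0 higher for ZnF4 minus wt in fraction C, 4 lower and 3 higher for ZnF1 minus wt in fraction C, and 0 higher for ZnF1 minus wt in fraction B. They became 21 lower and 0 higher for ZnF4 minus ZnF1 in fraction C, 0 lower and 41 higher for C minus B in ZnF1, and 40 higher for C minus B in wt. Rescaling on the median ratio gave 1 higher for ZnF4 minus wt in fraction B, 1 higher for ZnF1 minus wt in fraction B, 1 lower and 2 higher for ZnF4 minus ZnF1 in fraction C, 1 lower for C minus B in ZnF1 and 7 higher for C minus B in wt. A 2-fold threshold left 0 lower and 0 higher for ZnF4 minus wt in fraction C and 4 lower in fraction B. It left 9 lower for ZnF1 minus wt in fraction C and 0 higher in fraction B, 2 higher for ZnF4 minus ZnF1 in fraction C and 11 lower in fraction B. For C minus B it left 13 higher in ZnF4, 0 lower in ZnF1 and 0 higher in wt. Apart from these constructions the cause was not tested.

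Leaving out a library in turn, limma called 0 to 24 members for ZnF4 minus wt, 0 to 26 for ZnF1 minus wt, 0 to 28 for ZnF4 minus ZnF1 and 0 in every such fit for C minus B, where 0 were called with all 6 libraries. The fit of the 4 wt and ZnF4 libraries alone called 26 for ZnF4 minus wt, and the calls appear only where a ZnF1 library is left out. No paired analysis was possible because each group held 1 library and the labels give no replicate numbers. Depth is unknown, so no counting error can be given, and differences of members under about 10 RPKM rest on values rounded to 0.1.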
